A study of Mus musculus with 14 samples.

Results

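Immediate early transcription factors are the first genes a cell switches on after a stimulus. 10 of them were followed across the hearts of wild-type mice and of mice labelled Clk3 KO, a knockout of the protein kinase gene Clk3: Fos, Fosb, Jun, Junb, Atf3, Egr1, Egr2, Nr4a1, Myc and Ier2. They were chosen by name and found by Ensembl identifier among the 51912 genes of the count tables, and all 10 had enough reads to be tested. The series asked what Clk3 does in heart enlargement: mice of both genotypes, all on the C57BL/6J background, had either a sham operation or TAC (transverse aortic constriction, a narrowing of the aorta that loads the left ventricle with pressure). There were 4 wild-type sham libraries and 4 knockout sham libraries, in each case numbers 1 and 2 from mice aged 11 weeks and numbers 3 and 4 from mice aged 10 weeks, and there were 2 wild-type TAC and 4 knockout TAC libraries, all at 10 weeks. The labels give neither the allele behind the knockout, nor the time from surgery to collection, nor whether each library is 1 animal, so the spread between libraries may be technical in part. Libraries are named by group and by a number that follows the order of deposit and pairs nothing.

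Immediate early genes are transcribed within minutes of a stimulus such as growth factor, stretch or adrenergic signalling, by factors already present in the cell (SRF with its ternary complex partners, CREB and others), and their messengers decay fast. Their proteins then start a later programme: Fos and Jun proteins pair into the AP-1 factor, Egr1 and Egr2 are zinc finger factors, Nr4a1 is an orphan nuclear receptor, Atf3 is a stress-induced relative of the CREB family, and Myc drives growth and ribosome production. In the heart their induction is a classic early sign of acute pressure load, and stress of handling or dissociation also induces them.

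Depth was 11385818 to 20369637 gene-assigned counts per library. Levels below are CPM, counts scaled to a common total of gene-assigned reads after TMM scaling (a correction for differences in composition), and for comparison between genes RPKM, the same level per kilobase of exon. The targeted gene was checked first: Clk3 read 62.8 to 67.4 CPM in the 4 knockout sham libraries and 50.7 to 64.9 CPM in the 4 knockout TAC libraries, against 73.2 to 96.0 CPM in the 4 wild-type sham libraries. Of the 2 wild-type TAC libraries, number 2 read 92.3 CPM and number 1 read 54.2 CPM. The Rplp0 pseudogene Gm8730, a processed copy whose reads can be shared with its parent, read 57.4 CPM or more in all 8 knockout libraries. It read at most 1.63 CPM in 5 of the 6 wild-type libraries, and 66.8 CPM in the sixth, labelled wild-type TAC 1. In both genes the library labelled wild-type TAC 1 read as the knockout libraries did, so the tests of the 10 genes and the counts over lists that rest on the wild-type TAC group are given with and without it. Without it a single wild-type TAC library is left, which is assumed to vary as the other groups do. Nppa, the natriuretic peptide gene that rises with load, reached 1912 and 1808 CPM after TAC in wild type and 639 to 1119 CPM after TAC in the knockout, and at most 235 CPM in any sham library. Arntl, a core gene of the daily clock, was 4.53 to 9.38 CPM in wild-type sham hearts and 18.2 and 23.7 CPM in wild-type TAC hearts. In the knockout it was 4.40, 4.82, 5.50 and 24.3 CPM in sham libraries 1 to 4 and 23.2, 23.2, 9.02 and 22.1 CPM in TAC libraries 1 to 4. The share of reads outside any annotated feature also moved with surgery, from 17.1 to 19.0% in knockout sham and 14.3 to 17.6% in wild-type sham to 12.3 to 14.3% in knockout TAC and 10.7 and 14.9% in wild-type TAC.

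RefSeq promoters on GRCm38.p6 were found for 7 of the 10 genes (Fos, Fosb, Jun, Junb, Egr2, Nr4a1 and Atf3); Egr1, Ier2 and Myc had no entry. The 4 below are shown because they belong to genes that rose with TAC (Egr2, Atf3) or varied most between libraries of a group (Fos, Nr4a1, Atf3). Each runs 5′ to 3′ on the gene's strand over the 250 bases before the transcription start. Capitals mark TGACG or its reverse complement CGTCA (the core of the CREB and ATF site), GCGNGGGCG or its reverse complement (the EGR site) and TATAAA (the TATA box).
Fos promoter (chr12:85473640-85473889, plus strand, outside annotated exons): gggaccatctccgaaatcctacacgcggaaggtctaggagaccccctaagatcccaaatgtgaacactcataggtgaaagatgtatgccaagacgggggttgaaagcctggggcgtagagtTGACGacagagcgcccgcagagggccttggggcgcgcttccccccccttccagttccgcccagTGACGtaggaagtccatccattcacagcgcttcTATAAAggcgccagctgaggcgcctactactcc
Nr4a1 promoter (chr15:101266596-101266845, plus strand, intronic to a longer transcript): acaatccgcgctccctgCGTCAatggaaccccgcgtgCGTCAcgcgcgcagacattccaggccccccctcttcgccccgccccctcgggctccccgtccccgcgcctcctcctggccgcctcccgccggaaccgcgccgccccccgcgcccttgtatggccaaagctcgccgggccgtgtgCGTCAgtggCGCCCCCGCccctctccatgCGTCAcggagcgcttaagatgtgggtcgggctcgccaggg
Atf3 promoter (chr1:191183334-191183583, minus strand, inside the span of a longer transcript, 7 bases in an exon): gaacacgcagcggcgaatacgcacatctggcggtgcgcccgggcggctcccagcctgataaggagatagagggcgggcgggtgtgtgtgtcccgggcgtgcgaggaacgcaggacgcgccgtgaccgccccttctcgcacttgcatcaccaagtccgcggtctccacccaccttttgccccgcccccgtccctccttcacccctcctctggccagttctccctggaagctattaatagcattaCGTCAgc
Egr2 promoter (chr10:67535249-67535498, plus strand, before the most upstream of 5 listed starts, 24 bases in an exon): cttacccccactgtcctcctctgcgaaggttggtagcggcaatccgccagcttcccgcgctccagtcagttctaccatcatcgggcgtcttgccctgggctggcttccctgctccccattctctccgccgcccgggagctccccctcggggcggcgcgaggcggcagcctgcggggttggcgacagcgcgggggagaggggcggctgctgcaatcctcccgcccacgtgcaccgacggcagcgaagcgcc
In windows that also took in the 50 bases from the start on, TGACG was present on 1 strand or the other in 5 of the 7 promoters, against 20.8% of all 32851 RefSeq promoter windows of that length. Nr4a1 held 4 matches, beginning 233, 213, 69 and 40 bases before the start, and Fos held 2, beginning 129 and 66 bases before it. The match in Atf3 began 7 bases before the start, and those in Fosb and Junb began 60 and 106 bases before it. The EGR site GCGNGGGCG was found in Fosb and Nr4a1 (5.55% of all windows) and TATAAA in Fos and Junb (13.6%). TATAAA began 33 bases before the start in Fos but at the start itself in Junb. The palindrome TGACGTCA (1.79% of all windows, itself holding TGACG), the AP-1 site TGANTCA (7.81%) and the CArG box of SRF (1.63%) had no match in these 7 windows. A match in letters is a description and not a measured binding site.

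Per kilobase of exon, Jun was the most abundant of the 10 in the hearts and Fosb the least. Averaged over the 14 libraries, the level was 28.1 RPKM for Jun, 12.5 for Ier2, 8.40 for Junb, 6.20 for Atf3, 4.43 for Egr1, 4.14 for Nr4a1, 1.39 for Myc, 1.37 for Fos, 0.337 for Egr2 and 0.0846 for Fosb. Within wild-type sham hearts the ranges of Jun (19.1 to 33.2 RPKM), Ier2 (11.3 to 14.2) and Junb (6.91 to 11.0) did not overlap. Junb and Egr1 were also apart, as was Egr2 (0.138 to 0.222 RPKM) from Fos and Myc above it and from Fosb (0.0614 to 0.0864) below it. Other ranges overlapped: Egr1 (3.37 to 6.03 RPKM) overlapped Nr4a1 (2.02 to 3.89), Nr4a1 overlapped Atf3 (2.15 to 2.78), and Fos (0.397 to 2.58) reached into that of Atf3 and spanned Myc (1.03 to 1.29). By group means Atf3 changed place most, from 2.48 RPKM in wild-type sham hearts, below Egr1 and Nr4a1, to 10.5 RPKM in knockout TAC hearts. That mean was above both and above Junb at 9.22 RPKM. Ranges in knockout TAC hearts overlapped, at 4.57 to 19.3 RPKM for Atf3 and 7.02 to 10.8 for Junb. Nr4a1 there spanned 3.12 to 13.3 RPKM and Egr1 3.48 to 7.91. Fosb (2 to 14 reads per library) and Egr2 (2 to 39 reads) were thinly read, so their single values carry a large counting error.

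**Figure D1:**
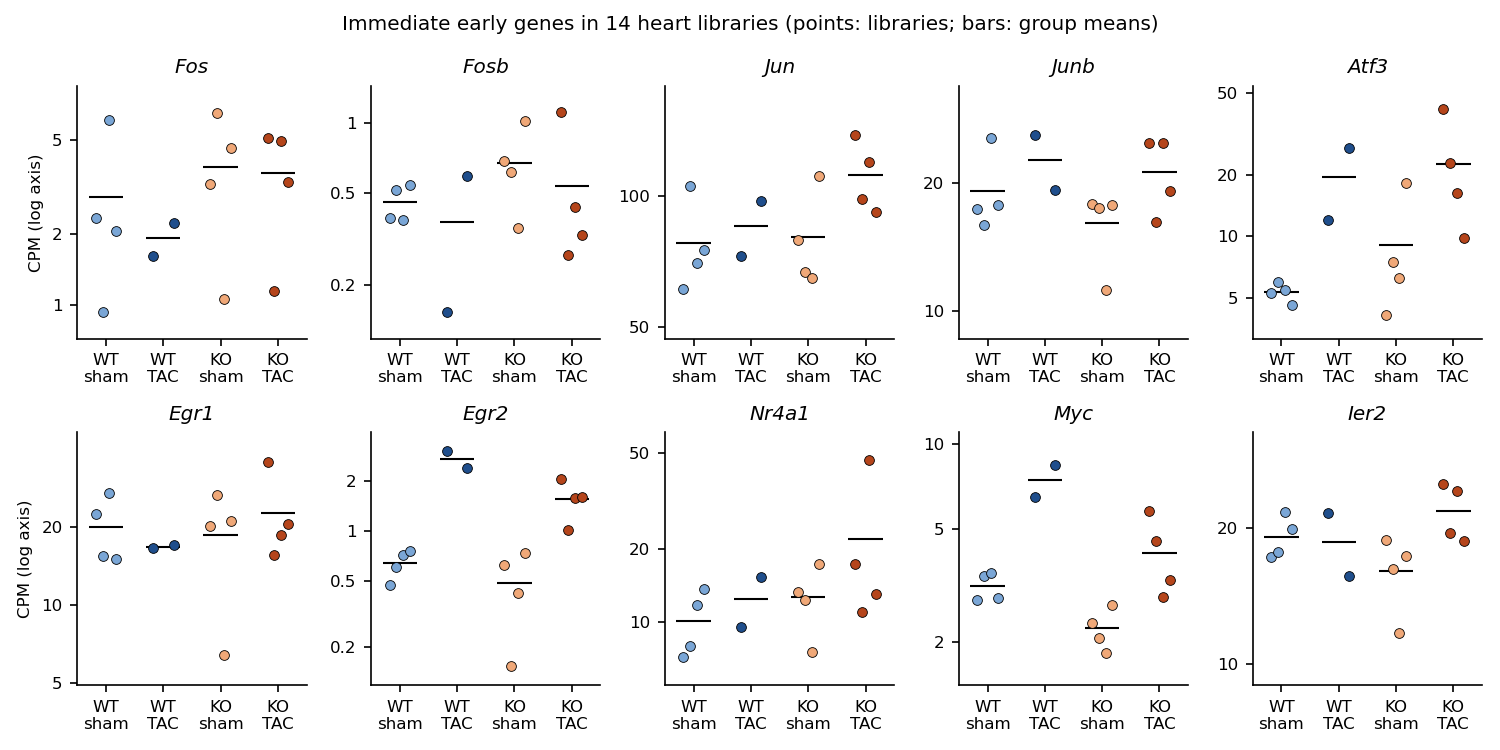
Level of each of the 10 genes in CPM (log axis) by group; points are the 14 libraries and bars are group means. All TAC libraries lie above all sham libraries of the same genotype for Egr2 and Myc in both genotypes and for Atf3 in wild type, while Fos spans 0.935 to 6.07 CPM within wild-type sham alone.

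With TAC, 3 of the 10 genes rose in wild-type hearts (Egr2, Myc and Atf3) and 2 of the 10 rose in knockout hearts (Egr2 and Myc); none of the 10 fell in either. The test was edgeR's quasi-likelihood test on the counts of all 14 libraries in 1 fit, with Benjamini-Hochberg adjustment over 15651 genes and a threshold of 0.05. For reading these counts, 6.91% of all genes tested rose in wild-type TAC hearts and 5.3% fell, and 6.73% rose in knockout TAC hearts and 6.26% fell. The wild-type shares dropped to 1.98% and 1.18% when the library labelled wild-type TAC 1 was left out (512 of 16199 genes called against 1912 of 15651), and the same 3 of the 10 genes passed. In the knockout the count over all genes was 2033, and from 797 without sham library 2 to 2306 when each library was left out in turn. Every TAC library was above every sham library for the same 3 genes in wild type, where 16.4% of all genes did this with 2 against 4 libraries. In the knockout, with 4 against 4, it held for Egr2 and Myc, and for 10.6% of all genes. The median log2 fold change of the 10 was 0.18 in wild type and 0.46 in the knockout, against -0.0023 and -0.0053 over all genes tested. The median of the 10 in wild type was 0.33 with wild-type TAC 1 left out. For the 7 genes that did not pass in wild type and the 8 in the knockout, a p that misses the threshold does not show that they were unchanged. In whole hearts a change in the number of cells of a type and a change in RNA per cell cannot be told apart.

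Egr2, a zinc finger factor of the EGR family (ENSMUSG00000037868.15, chr10:67535475-67542188), had the largest fitted rise of the 10 in both genotypes with all libraries kept, though Atf3 was larger in some other settings given below. In wild-type sham libraries 1 to 4 it read 0.468, 0.608, 0.711 and 0.755 CPM, and in the 2 wild-type TAC libraries 2.99 and 2.37 CPM. In knockout sham libraries 1 to 4 it read 0.619, 0.153, 0.423 and 0.731 CPM, and in knockout TAC libraries 1 to 4 it read 2.03, 1.01, 1.58 and 1.59 CPM. The lowest TAC library, knockout TAC 2, stood above the highest sham library of either genotype. The rise was 4.12-fold in wild type (log2 fold change 2.04, SE 0.35, edgeR adjusted p = 0.00126) and 3.13-fold in the knockout (1.64, SE 0.34, adjusted p = 0.00711). Without the library labelled wild-type TAC 1 the wild-type log2 fold change was 1.87 (adjusted p = 0.0345). With any 1 of the 14 libraries left out, the edgeR adjusted p was at most 0.0345 in wild type and 0.0230 in the knockout.

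Myc, the growth-promoting basic helix-loop-helix factor (ENSMUSG00000022346.15, chr15:61985391-61990374), also rose in both. Its wild-type sham libraries read 2.81, 3.41, 3.50 and 2.86 CPM and its wild-type TAC libraries 6.52 and 8.45 CPM. Its knockout sham libraries read 2.34, 2.07, 1.83 and 2.70 CPM and its knockout TAC libraries 5.82, 4.53, 2.88 and 3.30 CPM. Knockout TAC hearts stood above knockout sham hearts, though number 3, at 2.88 CPM, lay among the wild-type sham values. The rise was 2.37-fold in wild type (log2 fold change 1.24, SE 0.24, edgeR adjusted p = 0.00288) and 1.81-fold in the knockout (0.86, SE 0.22, adjusted p = 0.0209). Without the library labelled wild-type TAC 1 the wild-type value was 1.42 (adjusted p = 0.0156). In the knockout the call was lost without sham library 2 or 3 or TAC library 1 or 2, with log2 fold changes down to 0.67 and adjusted p up to 0.0654.

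Atf3, the stress-induced member of the ATF and CREB family (ENSMUSG00000026628.13, chr1:191170296-191218039), passed in wild type and missed the threshold in the knockout. Its wild-type sham libraries were close together at 5.31, 5.98, 5.47 and 4.64 CPM, and the wild-type TAC libraries read 12.0 and 26.9 CPM. Its knockout sham libraries read 4.13, 7.50, 6.27 and 18.3 CPM and its knockout TAC libraries 41.6, 22.8, 16.3 and 9.84 CPM. Knockout sham 4 thus lay above 2 of the 4 knockout TAC libraries. The rise was 3.63-fold in wild type (log2 fold change 1.86, SE 0.52, edgeR adjusted p = 0.0276), and the knockout value was 1.31 (SE 0.43, adjusted p = 0.058). The 2 values were not shown to differ, with a difference of -0.56 (SE 0.68, edgeR adjusted p = 0.925), or -1.02 (SE 0.74, adjusted p = 0.914) without the library labelled wild-type TAC 1. That single omission put the rise of Atf3 above that of Egr2 in wild type (2.33 against 1.87), as did the 10-week libraries alone (1.94 against 1.86), the share of reads outside features as a covariate (2.30 against 1.81) and reads in coding sequence alone (1.84 against 1.78). In the knockout, Atf3 was at 1.91 and Egr2 at 1.90 without sham library 4. In wild type the log2 fold change was 2.33 (adjusted p = 0.045) without the library labelled wild-type TAC 1 and 1.17 (adjusted p = 0.264) without wild-type TAC 2, and the call was also lost without sham library 3 or 4. It was lost as well with age as a covariate (adjusted p = 0.114), on reads in coding sequence alone (0.0569) and with robust dispersion estimates (0.067). Leaving out knockout sham 4 raised the knockout log2 fold change to 1.91 (adjusted p = 0.00898). The knockout call was also gained without knockout TAC 4 (adjusted p = 0.0381) or without wild-type TAC 1 or 2 (0.0485 in both cases), whose spread enters the shared estimate.

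Knockout sham 4, the sham heart with the highest Atf3, was also the one sham heart with Arntl at the level of the TAC hearts, 24.3 CPM. Knockout TAC 3, the one TAC heart with low Arntl at 9.02 CPM, had 16.3 CPM of Atf3 and the lowest Myc of the TAC hearts. Knockout TAC 4 had 22.1 CPM of Arntl with 9.84 CPM of Atf3, and wild-type TAC 1 had 18.2 CPM with 12.0 CPM. Nr1d1, another clock gene, overlapped between sham and TAC in both genotypes. It read 111 to 136 CPM in knockout sham and 117 to 132 CPM in knockout TAC. In wild type it read 114 to 193 CPM in sham and 119 and 168 CPM in TAC. The time of day of collection is not in the labels. With the Arntl level as a covariate, the wild-type log2 fold changes were 1.71 for Egr2 (edgeR adjusted p = 0.0555), 0.84 for Myc (adjusted p = 0.133) and 0.79 for Atf3 (adjusted p = 0.468), and the knockout values were 1.41 for Egr2 (adjusted p = 0.0866) and 0.56 for Myc (adjusted p = 0.266). None of the 10 genes passed in either genotype in that fit. Since Arntl itself differed between sham and TAC in most libraries, surgery and what Arntl marks can hardly be told apart, and the part of either in these rises was not tested.

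**Figure D2:**
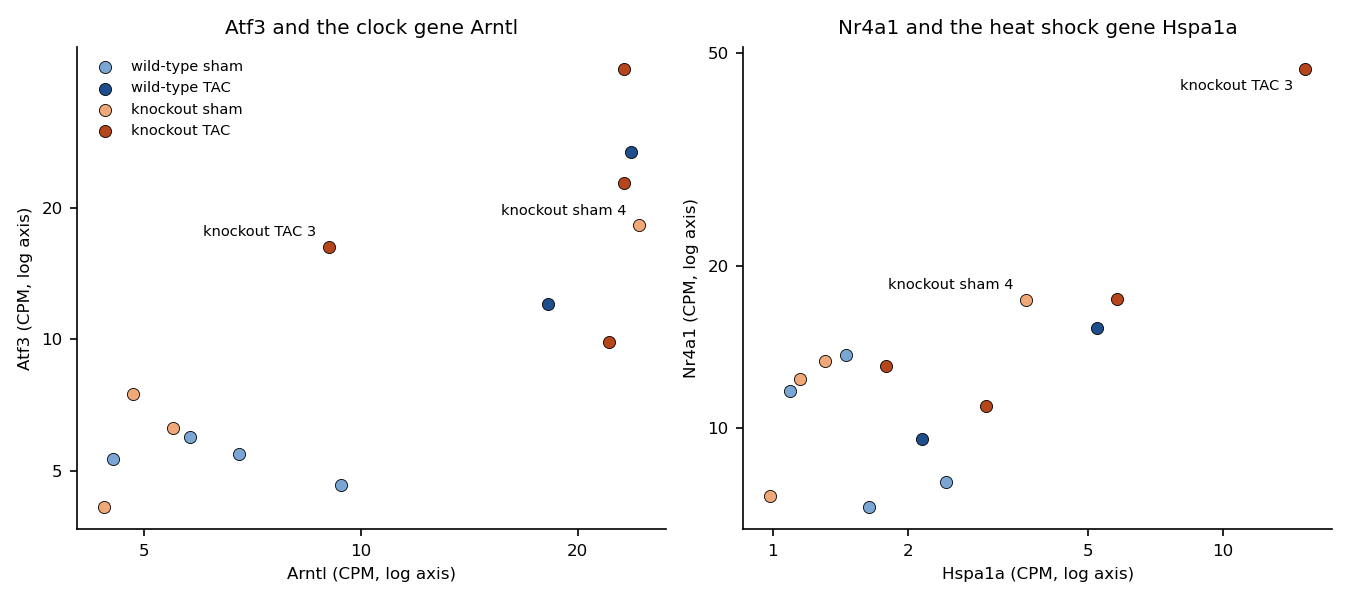
Left: Atf3 against Arntl, both in CPM on log axes, for the 14 libraries by group; knockout sham 4 lies with the TAC libraries at high Arntl (24.3 CPM) and high Atf3 (18.3 CPM). Right: Nr4a1 against the heat shock gene Hspa1a, where knockout TAC 3 has the highest value of both (46.6 and 15.2 CPM).

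Among the 10-week libraries alone, the rises in wild type were 1.86 for Egr2 (edgeR adjusted p = 0.0156), 1.23 for Myc (adjusted p = 0.0455) and 1.94 for Atf3 (adjusted p = 0.107) on the log2 scale. In the knockout they were 1.40 for Egr2 (adjusted p = 0.121) and 0.84 for Myc (adjusted p = 0.228). With 2 knockout sham libraries left in that fit, 15 genes of all passed in the knockout. With the share of reads outside features as a covariate, Egr2 and Myc kept their calls in wild type and Atf3 lost it (adjusted p = 0.053). In the knockout that share did not overlap between sham and TAC, so it and the surgery cannot be told apart, and no gene passed.

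Of the AP-1 subunits Fos, Fosb, Jun and Junb, none passed with TAC in either genotype. Fos, the partner of Jun proteins in AP-1 (ENSMUSG00000021250.13, chr12:85473890-85477273), read 2.34, 0.935, 6.07 and 2.05 CPM in wild-type sham libraries 1 to 4 and 1.61 and 2.22 CPM in wild-type TAC. It read 3.23, 6.51, 1.06 and 4.60 CPM in knockout sham and 5.08, 1.15, 4.94 and 3.30 CPM in knockout TAC. High and low libraries were found in each of the groups of 4. The log2 fold change was -0.56 (SE 0.74, edgeR adjusted p = 0.684) in wild type and -0.09 (SE 0.54, adjusted p = 0.936) in the knockout, and the sign of both depends on the libraries kept, with ranges of -0.88 to 0.14 and -0.40 to 0.28 when each library was left out in turn. The wild-type value was -0.35 with wild-type TAC 1 left out.

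Fosb (ENSMUSG00000003545.3, chr7:19302696-19310051), a close relative of Fos, ranged from 0.153 to 1.11 CPM over all libraries, with log2 fold changes of -0.29 (SE 0.63) in wild type and -0.41 (SE 0.46) in the knockout. Leaving out wild-type TAC 1, where Fosb had 2 reads, gave 0.35 (SE 0.70). At 2 to 14 reads per library a change of this size was not detectable. Jun (ENSMUSG00000052684.4, chr4:95049034-95052222), the core AP-1 subunit, read 61.1, 106, 70.0 and 75.3 CPM in wild-type sham hearts, 73.0 and 97.4 CPM in wild-type TAC, 79.1, 66.7, 64.7 and 112 CPM in knockout sham and 138, 98.5, 120 and 92.0 CPM in knockout TAC. Its wild-type log2 fold change was 0.12 (SE 0.23), or 0.32 (SE 0.29) without the library labelled wild-type TAC 1. Its knockout value of 0.48 (SE 0.19) had an unadjusted edgeR p of 0.0244 and an adjusted p of 0.111. Knockout sham 4 was again the sham heart that overlapped the TAC hearts, and without it the adjusted p was 0.0244 at a log2 fold change of 0.67.

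Junb (ENSMUSG00000052837.6, chr8:84974484-84978718), an AP-1 subunit that can restrain Jun, read 11.2 to 17.8 CPM in knockout sham and 16.2 to 24.8 CPM in knockout TAC (log2 fold change 0.40, SE 0.19, edgeR adjusted p = 0.168), and 15.9 to 25.4 CPM in wild-type sham against 25.9 and 19.3 CPM in wild-type TAC (0.24, SE 0.22). The latter was 0.01 (SE 0.29) with wild-type TAC 1 left out. Exons of Junb share 173 bases with Prdx2 on the other strand, which read 311 CPM or more in every library, and exons of Jun share 232 bases with the antisense gene Junos, which had 278 reads in all. Because the strand setting of the counting is not given, the levels of Junb and Jun are uncertain.

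**Figure D3:**
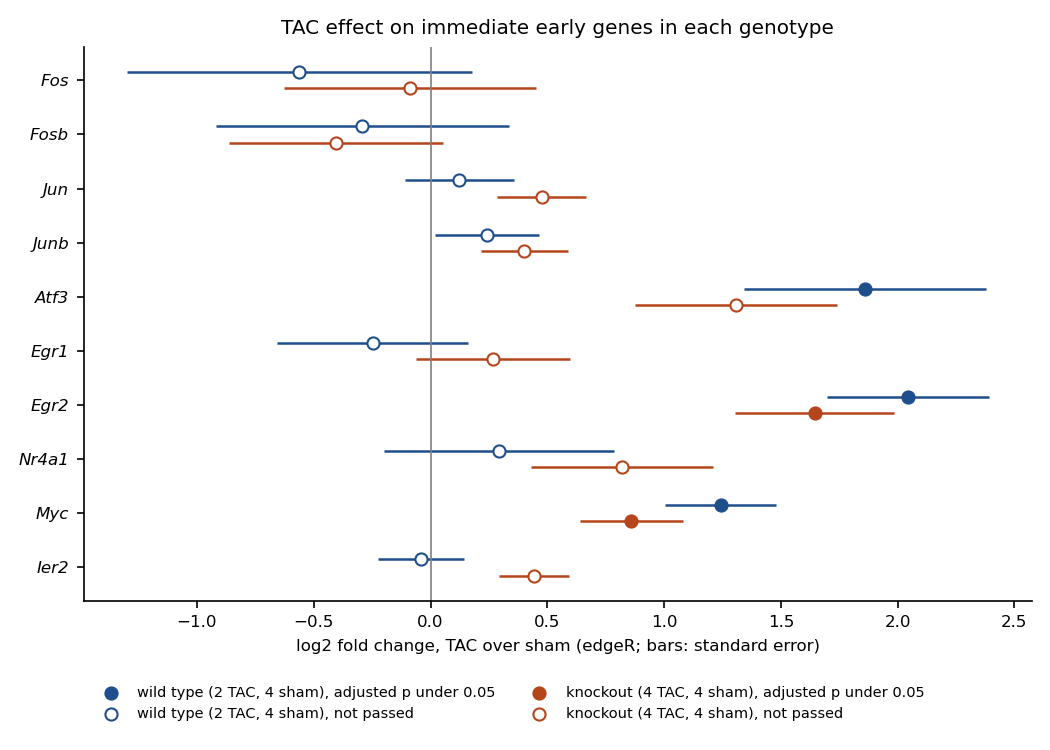
Log2 fold change of TAC over sham for the 10 genes in wild type (blue) and knockout (orange), with standard errors as bars; filled points passed at an adjusted p under 0.05 (edgeR). Egr2, Myc and Atf3 are filled in wild type (2.04, 1.24 and 1.86), Egr2 and Myc in the knockout (1.64 and 0.86).

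Of the other factors, Egr1 (ENSMUSG00000038418.7), the EGR member best known in the loaded heart, did not pass in either genotype. It read 22.4, 15.4, 27.0 and 15.1 CPM in wild-type sham, 16.6 and 17.0 CPM in wild-type TAC, 20.2, 26.6, 6.41 and 21.1 CPM in knockout sham and 35.5, 15.6, 18.5 and 20.5 CPM in knockout TAC. The groups overlapped, and the log2 fold changes were -0.25 (SE 0.41, edgeR adjusted p = 0.755) and 0.27 (SE 0.33, adjusted p = 0.626). Knockout sham 3 was far below its group, and without it the knockout value was -0.02. With wild-type TAC 1 left out the wild-type value was -0.23.

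Nr4a1, the orphan nuclear receptor also called Nur77 (ENSMUSG00000023034.6, chr15:101254269-101274795), read 7.10, 7.90, 11.7 and 13.6 CPM in wild-type sham and 9.52 and 15.3 CPM in wild-type TAC. It read 13.3, 12.3, 7.47 and 17.3 CPM in knockout sham and 17.4, 11.0, 46.6 and 13.0 CPM in knockout TAC. A single library, knockout TAC 3, stood above all others. The wild-type log2 fold change was 0.29 (SE 0.49), or 0.60 (SE 0.62) without the library labelled wild-type TAC 1. The knockout log2 fold change of 0.82 (SE 0.39, edgeR adjusted p = 0.177) fell to 0.12 (adjusted p = 0.821) without knockout TAC 3. The same library had the highest Hspa1a, 15.2 CPM against 0.99 to 5.82 CPM in the other 13, Hspa1b, 14.3 CPM, and Dnajb1, 46.1 CPM, all heat shock genes; Hspa1a and Hspa1b are near-identical copies whose reads can be split between them. The part of a heat shock or handling response in this value of Nr4a1 was not tested.

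Ier2 (ENSMUSG00000053560.4, chr8:84661331-84662852), a small nuclear immediate early protein, read 17.3, 17.7, 21.7 and 19.95 CPM in wild-type sham and 21.6 and 15.6 CPM in wild-type TAC (log2 fold change -0.04, SE 0.18, or -0.29, SE 0.23, without the library labelled wild-type TAC 1). It read 18.9, 16.2, 11.7 and 17.4 CPM in knockout sham and 25.0, 19.5, 24.2 and 18.7 CPM in knockout TAC. Only knockout TAC 4 and knockout sham 1 crossed, at 18.7 and 18.9 CPM. The knockout value was 0.44 (SE 0.15, edgeR adjusted p = 0.0622), and DESeq2, a different count model, gave an adjusted p of 0.0379. In edgeR it passed without wild-type TAC 1 (adjusted p = 0.0476) or 2 (0.0474).

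None of the 10 genes passed between knockout and wild type in sham hearts or after TAC, and none passed for the size of the TAC effect (edgeR). Of all genes tested, 0.888% passed in sham, 1.48% after TAC and 0.0192% in the interaction, the test of the difference between the TAC effects. These shares rest on few libraries: the 139 genes called in sham became 8 (without wild-type sham 3) to 531 (without wild-type sham 1). The 232 called after TAC became 46 without the library labelled wild-type TAC 1 and 359 without wild-type TAC 2. The 3 in the interaction became 1 and 32 without the same 2 libraries in turn. None of the 10 passed in any of the 3 comparisons without the library labelled wild-type TAC 1. At an unadjusted p under 0.05, edgeR gave 1 of the 10 in sham (Myc), 2 after TAC (Myc and Egr2) and 0 in the interaction. DESeq2 called 0 in sham, 1 after TAC (Myc) and 0 in the interaction. Myc was lower in the knockout, with a log2 fold change of -0.50 in sham (SE 0.22, edgeR adjusted p = 0.252) and -0.88 after TAC (SE 0.24, adjusted p = 0.0797). After TAC all 4 knockout libraries, 2.88 to 5.82 CPM, lay below both wild-type libraries, 6.52 and 8.45 CPM. DESeq2 gave an adjusted p of 0.0415 for it, and edgeR without knockout TAC 1 gave 0.0339. Without the library labelled wild-type TAC 1 the value was -1.05 (adjusted p = 0.168), and without wild-type TAC 2 it was -0.68 (adjusted p = 0.286). Egr2 after TAC was 1.01 to 2.03 CPM in the knockout and 2.37 and 2.99 CPM in wild type, a log2 difference of -0.80 (SE 0.33, edgeR adjusted p = 0.266), or -0.62 (SE 0.43, adjusted p = 0.584) without the library labelled wild-type TAC 1. These comparisons use the same TAC and sham libraries as the TAC effects above and are not independent of them. In the interaction the smallest adjusted p of the 10 was that of Ier2, 0.782, at 0.48 (SE 0.24). With wild-type TAC 1 left out it was 0.74 (SE 0.27, edgeR adjusted p = 0.789).

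Most of the 10 genes spread widely between libraries of a group. The biological coefficient of variation (BCV, edgeR's estimate of the relative spread between libraries of a group beyond counting noise) had a median of 23.4% over the 10 and 11.2% over all genes tested. It was 52.4% for Fos, 41.2% for Atf3, 37.3% for Nr4a1, 32.3% for Egr1, 27.8% for Fosb, 18.9% for Jun, 17.8% for Junb, 17.4% for Myc, 16.6% for Egr2 and 14.2% for Ier2. Since the BCV falls with level, each was also divided by the trend at its level. On that scale Atf3 lay at percentile 99.5 of all 15651 genes, Nr4a1 at 99.4, Fos and Egr1 at 99.2, Jun at 97.3 and Junb at 93.2. Ier2 at 83.1, Fosb at 81.0 and Myc at 63.4 were nearer the middle. Egr2, which rose with TAC in both genotypes, was at 26.6, below the trend. Myc was also below it, at 17.4% against a trend of 18.5%. Put as ratios within a group, the highest wild-type sham library had 6.50 times the Fos of the lowest. The highest knockout sham library had 6.16 times the Fos of the lowest. For Ier2 the same ratios were 1.26 and 1.61. For Egr2, at 2 to 39 reads per library, they were 1.61 and 4.77, counting noise included.

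**Figure D4:**
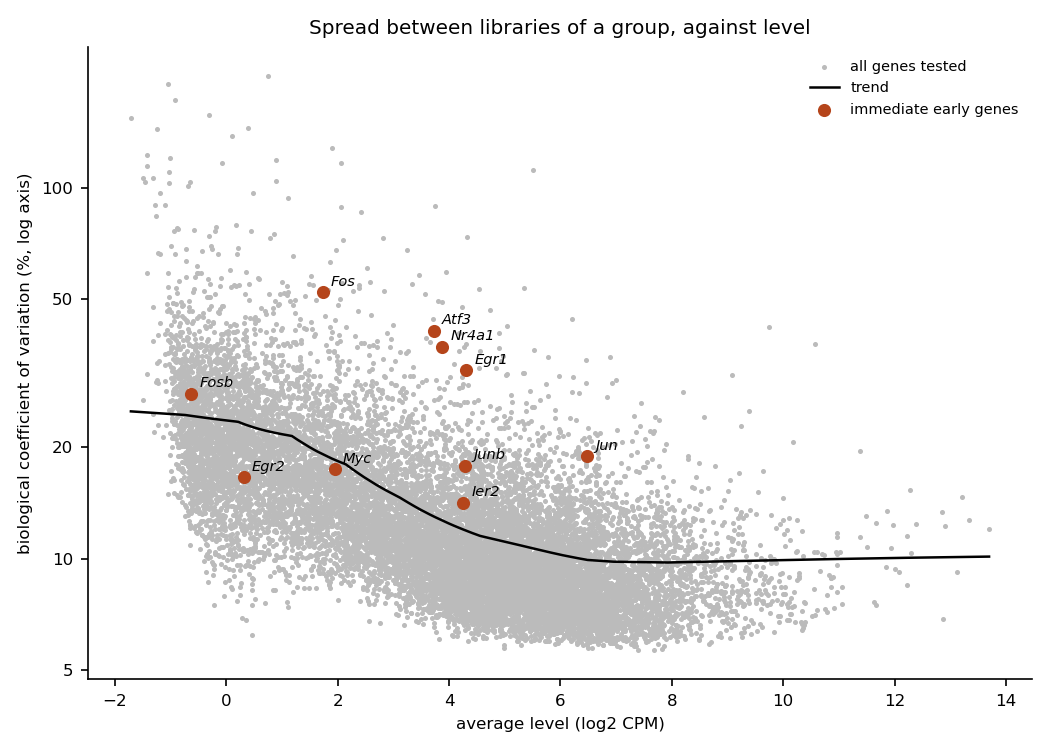
Biological coefficient of variation (percent, log axis) against average level (log2 CPM) for 15651 genes in grey, edgeR's trend as a line and the 10 genes in orange. Fos (52.4%), Atf3 (41.2%), Nr4a1 (37.3%) and Egr1 (32.3%) stand far above the trend. Egr2 (16.6%) and, by less, Myc (17.4%) lie below it.

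Part of this spread was shared by whole libraries. Knockout sham 3 was below its group's mean for 10 of the 10 genes, by 0.60 on the log2 scale on average, and knockout sham 4 was above it for 10 of 10, by 0.49. These are the 2 knockout sham libraries from 10-week mice. Knockout TAC 1 was above its group's mean for 9 of 10 genes (by 0.51 on average) and knockout TAC 2 for 2 of 10 (mean deviation -0.40). Deviations were smaller in the remaining knockout libraries, from -0.27 to 0.15, and in the wild-type libraries, from -0.16 to 0.27. Each library enters its own group mean, so high and low libraries in a group balance by construction.

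**Figure D5:**
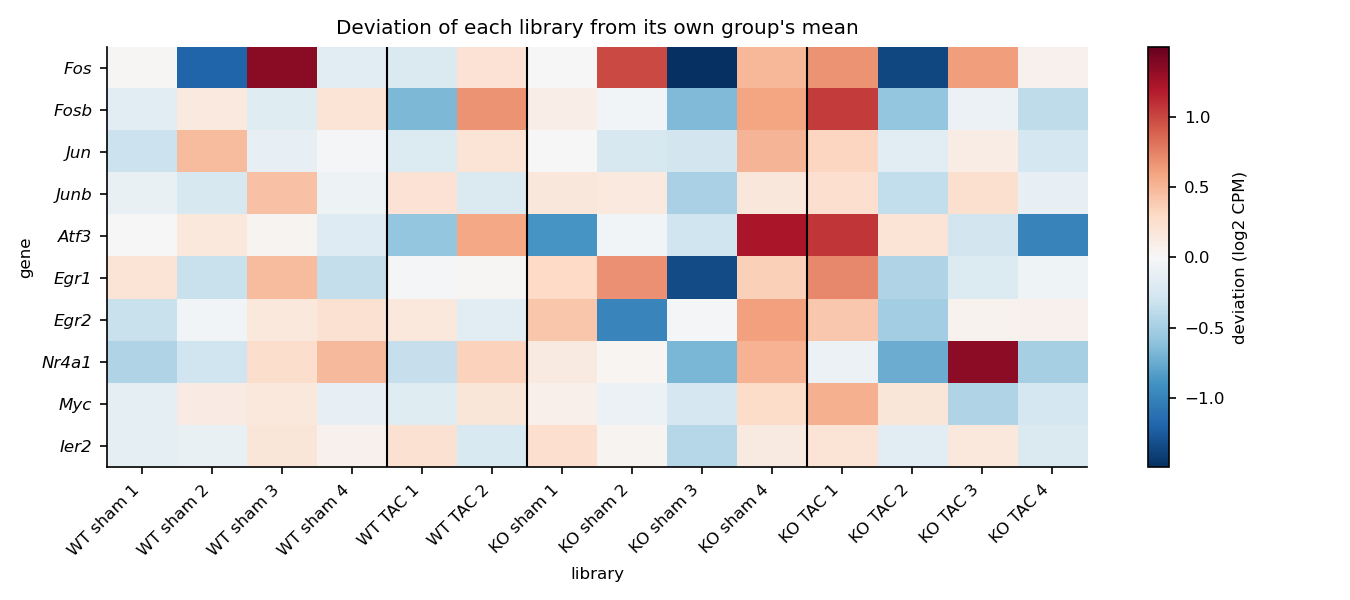
Deviation of each library from its own group's mean (log2 CPM, colour) for the 10 genes, with the groups parted by lines. The column of knockout sham 3 is blue, or nearly white for Egr2, and that of knockout sham 4 is red (means -0.60 and 0.49).

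Across the 14 libraries these deviations gave a median Pearson r of 0.37 over the 45 pairs of genes, with 17 pairs above 0.5 and 1 below 0; the points share library and depth, and the values are descriptions. Junb and Ier2 had the highest r, 0.904 (Spearman's rho 0.873), followed by Fos and Junb at 0.852 (rho 0.71) and Fos and Egr1 at 0.824 (rho 0.815). Atf3 and Myc, which both rose with TAC, had an r of 0.735 (rho 0.851). Atf3 went little with Junb (0.083) and Ier2 (0.077), and Egr1 little with Egr2 (0.046).

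Among 11003 other genes with at least 5 CPM on average, the 8 whose deviations were most like the mean of the 10 were Ppp1r15a (r 0.895), Enc1 (0.869), 4930523C07Rik (0.862), Dusp1 (0.852), Csrnp1 (0.85), Ntmt1 (0.842), Fosl2 (0.835) and Zfp36 (0.826), over 14 libraries. Without knockout sham 3 and knockout TAC 1, the libraries at the ends of the range, r was 0.759 to 0.90 for these 8. Ppp1r15a encodes a phosphatase subunit of the stress response, Dusp1 a phosphatase that switches off MAP kinases, Fosl2 an AP-1 subunit and Zfp36 a protein that speeds messenger decay. Of the 100 genes most like the 10, 12 were on lists of genes that make up 53 of the 11003. The lists counted were other immediate early genes, feedback regulators, and relatives and partners of AP-1, EGR and NR4A factors. Upstream factors and partners of Myc were not counted.

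The wider network was read from lists chosen by role, to be set against the shares of all genes that rose (6.91% and 6.73%) and fell (5.3% and 6.26%). Of 10 other AP-1 subunits and dimer partners tested, 2 rose in wild type and 3 in the knockout (edgeR). They were Mafk (log2 fold change 0.74 and 0.49) and Maff (0.70 and 0.88), small MAF proteins that pair with basic leucine zipper factors, in both genotypes, and Jund (0.46, adjusted p = 0.0499) in the knockout. Their median log2 fold change was 0.17 in wild type and 0.48 in the knockout. Of 5 tested relatives and corepressors of the EGR and NR4A factors, none passed in either genotype (medians 0.21 and 0.25). Of 10 partners and antagonists of Myc, Mnt, which competes with Myc for its partner Max, fell in wild type (-0.37, edgeR adjusted p = 0.0489). In the knockout Mycn (0.55) and Mxd4 (0.30) rose and Mga (-0.28) fell. The wild-type calls on these 3 lists were down to 1, the rise of Mafk, when wild-type TAC 1 was left out.

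Of 32 other immediate early genes, 4 rose and 1 fell in wild type and 9 rose and 1 fell in the knockout (edgeR), with medians of 0.12 and 0.28. The largest rise was that of Ccn2, a secreted matricellular protein (2.09 in wild type, adjusted p = 7.2e-05, and 1.35 in the knockout, adjusted p = 0.00197). Hbegf, an EGF receptor ligand, rose by 1.11 and 0.87, and Gadd45g, a stress sensor, by 0.70 and 0.65. Ccn1 passed in wild type (0.95), and Btg2, an antiproliferative gene, in the knockout (0.74). Rgs2, which damps G protein signalling, fell in both (-1.28 and -0.91). Of 15 feedback regulators, none passed in wild type and 3 rose in the knockout: Zfp36l2 (0.30), Zfp36l1 (0.45) and Spry1 (0.37). Of 22 upstream factors and kinases, 1 rose and 2 fell in wild type, where Crem (0.46), a CREB relative, rose and the stress kinase Mapk14 (-0.46) and Mef2a (-0.37) fell. In the knockout 6 rose, Rps6ka1 (0.49), Mapk3 (0.29), Map2k2 (0.23), Srf, Elk3 and Crem, and 2 fell, Mapk14 (-0.31) and Mef2a (-0.35). In the fit that leaves out wild-type TAC 1, Ccn2 was the 1 gene of the 32 other immediate early genes called in wild type, and 0 of the 15 feedback regulators and 0 of the 22 upstream genes were called.

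Some markers of other cells moved with TAC beside these genes, and those of 1 cell type did not move alike. Among fibroblast markers, Col1a1 read 108 to 157 CPM in wild-type sham and 414 and 395 CPM in wild-type TAC. In the same groups Pdgfra read 56.8 to 63.3 CPM and 71.1 and 67.9 CPM, and Tcf21 8.30 to 11.3 CPM and 10.3 and 8.82 CPM. The summed level of 5 fibroblast markers was 723 to 1045 CPM in wild-type sham, 1284 and 1573 CPM in wild-type TAC, 770 to 861 CPM in knockout sham and 932 to 1060 CPM in knockout TAC; 2 of 5 rose in wild type and 1 of 5 in the knockout. That of 5 macrophage markers was 99.9 to 120 CPM, 138 to 175 CPM, 76.0 to 102 CPM and 110 to 143 CPM in the same order; 2 of 5 and 3 of 5 rose. With wild-type TAC 1 left out, 1 fibroblast marker (Col1a1) and 1 macrophage marker (Fcgr1) rose in wild type. The 5 neutrophil markers summed to at most 3.26 CPM in any library, and S100a8 and S100a9, the 2 that could be tested, rose in the knockout. The 5 cardiomyocyte markers summed to 22711 to 27668 CPM in wild-type sham, 19180 and 23934 CPM in wild-type TAC, 24107 to 26774 CPM in knockout sham and 20657 to 26903 CPM in knockout TAC. Of them Ryr2 fell in both genotypes (-0.46 and -0.41) and Actn2 rose in the knockout (0.29). Sox10, a marker of Schwann cells, fell in wild type (-1.19), and 1 of the 2 tested Schwann cell markers fell in the knockout. Among 5 endothelial and 5 erythroid markers, Pecam1 (0.35) and Hba-a2 (0.52) rose in the knockout. Of 5 smooth muscle and pericyte markers none passed in either genotype with all libraries kept. Their median log2 fold change in wild type was -0.14, or -0.21 with wild-type TAC 1 left out. Of these, Kcnj8 read 68.3 to 84.3 CPM in wild-type sham, 77.7 CPM in wild-type TAC 1 and 51.3 CPM in wild-type TAC 2. The part of these cells in the rises of Egr2, Myc and Atf3 was not tested. Of 6 heat shock genes that respond to handling, Hsp90aa1 rose in wild type (0.73), and Hspa1a (1.88) and Hspa1b (2.12) rose in the knockout, where knockout TAC 3 was highest for both. When wild-type TAC 1 was left out, 0 of the 6 heat shock genes and 0 of the 5 cardiomyocyte markers passed in wild type, and neither did Sox10.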

How the data were processed

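RNA sequencing of 14 mouse heart libraries was analysed from the deposited tables. The deposited values are counts: whole reads per gene, not normalised, with coding and untranslated parts in separate columns, per the file headers. The labels' protocols give a column extraction, oligo-dT selection and a strand-specific kit. Tools named in the submitters' processing notes are STAR 2.4.2a, Picard 2.10.3 and bcl2fastq 2.17.1.14, with mm10 and GRCm38 as builds. For the counting, the sources used here give neither version, annotation nor strand setting. Symbols and positions came from GENCODE M21 (GRCm38), which held 51719 of the 51912 identifiers.

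Reads in no feature (10.7 to 19.0%) and ambiguous reads (1.43 to 1.59%) were left out of library sizes. Every pair of libraries within a group differed by more than sampling noise (lowest chi-square per degree of freedom 3.43 over 19 pairs). Genes were filtered with filterByExpr (minimum count 10), leaving 15651 tested and 36261 not. TMM-scaled counts entered the quasi-likelihood test of edgeR 4.0.16 in R 4.3.3, in 1 fit of 14 libraries with 1 coefficient per group. The edgeR test of TAC against sham was also run on simulated counts. These held no shift shared by a whole library and no wrong label, so that check says nothing about either. The standard error is the log2 fold change divided by the square root of F. Alternatives were DESeq2 1.42.0, other scalings, filters, covariates and counts, 10-week libraries alone, and each library left out. Deviations are log2 CPM (prior count 2) minus the group mean.

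The genes and lists were chosen with earlier results of these data known. All 10 genes are named with their values for TAC against sham in each genotype. Between genotypes and in the interaction all 10 were tested, but main values are given for only some, chiefly those of smallest p. From other lists, up to 4 passing genes of smallest p are named; in the lists with more, further names were chosen after their values were seen. The 8 genes most like the 10 are those with the highest r.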

Additional observations from a re-analysis of the deposited data

Results flagged for a closer look

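Of 30 groups of 4 libraries tested (10 genes in 3 groups), 1 held a value far from the others, where chance would give about 1 in 20 groups. Junb in knockout sham 3 read 11.2 CPM, with the other 3 knockout sham libraries between 17.5 and 17.8 CPM, so the gap took up 0.945 of the group's range, above the critical value of Dixon's test at the 95% level. The same library was below its group's mean for 10 of 10 genes. Without it the knockout log2 fold change of Junb with TAC was 0.26 (edgeR adjusted p = 0.379).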

How the results depend on the processing

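The calls rest on few libraries and on settings that also move the counts over all genes. Over the 10 genes, the number called with TAC in wild type was 3, and 0 with the Arntl level as covariate; it was 2, without Atf3, in 10-week libraries alone, with age or the share outside features as covariate, on coding counts and with robust dispersion, and 2 to 3 when each library was left out in turn. In the knockout it was 2, but 6 with no low-count filter, 0 in 10-week libraries alone, 1 with age as covariate, 0 with the share outside features as covariate and 0 with the Arntl covariate; it was 1 to 4 with each library left out. Knockout against wild type after TAC gave 0, but 1 with DESeq2 and 1 with no filter, and 0 to 1 with each library left out; in sham and in the interaction it was 0 in every setting run. The cause of these shifts was not tested, except that leaving out libraries leaves fewer samples.

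Over all genes, the wild-type count of 1912 became 1074 with only the groups compared, 938 at 10 weeks, 1158 with age, 596 with the share outside features, 662 with Arntl and 1169 on coding counts (512 to 2224 with each library left out, 512 without the library labelled wild-type TAC 1). The knockout count of 2033 became 15, 588, 0, 252 and 1005 in the same order from 10 weeks on (797 to 2306). Knockout against wild type in sham gave 139, and 582 with DESeq2, 387 with no filter, 0 at 10 weeks, 311 with Arntl and 92 on coding counts (8 to 531). After TAC it gave 232, and 467, 525, 60 with only the groups compared, 120 at 10 weeks and 145 on coding counts (46 to 359). The interaction gave 3, and 37 with DESeq2, 66 with no filter, 0 at 10 weeks, 0 with age, 8 with the share outside features, 1 with Arntl and 0 on coding counts (0 to 32).

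Signs turned in values that passed no test. With TAC in wild type they were Nr4a1 at 10 weeks (-0.0295), Fosb (0.38) and Egr1 (0.11) with the share outside features, Jun with Arntl (-0.19) and Ier2 on coding counts (0.0081). With TAC in the knockout they were Fos at 10 weeks (0.35) and on coding counts (0.0477), and Fosb with the share outside features (0.86). In sham they were Fos (-0.53) and Nr4a1 (-0.0355) at 10 weeks, Fosb (-0.0891) and Jun (-0.0017) with the share outside features, and Jun with Arntl (-0.0182). In the interaction Fosb was 0.49 with the share outside features and 0.0777 with Arntl.

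With each library left out in turn, log2 values whose sign turned ranged as follows. For TAC in wild type it was -0.88 to 0.14 for Fos, -1.54 to 0.35 for Fosb, -0.0986 to 0.32 for Jun, -0.0905 to 0.60 for Nr4a1 and -0.29 to 0.18 for Ier2. For TAC in the knockout it was -0.40 to 0.28 for Fos and -0.0229 to 0.49 for Egr1. In sham it was -0.17 to 0.22 for Jun and -0.33 to 0.18 for Egr1. Between genotypes after TAC it was -0.24 to 1.66 for Fosb, -0.29 to 0.14 for Junb and -0.27 to 0.89 for Atf3. In the interaction it was -0.24 to 0.85 for Fos, -0.76 to 1.135 for Fosb, -0.0412 to 0.39 for Junb, -0.17 to 0.91 for Nr4a1 and -1.02 to 0.14 for Atf3. Fosb had 2 to 14 reads per library and Egr2 2 to 39, which limits the precision of each single value.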
